A study of Mus musculus with 4 samples.

Results

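The genes described here encode the nuclear-encoded subunits of the mitochondrial respiratory chain and of the ATP synthase, together with a few assembly factors and other proteins that share their names. Members were taken by name (Nduf, Uqcr, Cox4, Cox5, Cox6, Cox7, Cox8 and Atp5 as first letters, or Sdha, Sdhb, Sdhc, Sdhd and Cyc1) and by level. The level had to reach 1 FPKM (fragments per kilobase of transcript, scaled to the size of the library) in at least 1 library. Of the 22552 gene rows in each deposited table, 91 names matched and 87 reached that level. They comprised 35 genes of complex I, 4 of complex II, 9 of complex III, 17 of complex IV, 14 of complex V and 8 assembly factors or other proteins. Cox7b2, Cox8c, Ndufs5 and Atp5g2 stayed below the minimum. Of the Ndufs5 and Atp5g2 transcripts 64.3% and 100% are found again elsewhere in the genome, so the levels of these genes are uncertain. The nearest value outside it was 0.769 FPKM, for Atp5g2 in the E15.5 dHET library, and the member with the lowest peak was Ndufb4, with 4.20 FPKM in the P2.5 dHET library.

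RNA came from whole mouse hearts of the strain labelled Sv129 and was poly-A selected. The groups were P2.5 dKO and P2.5 dHET hearts, taken at postnatal day 2.5, and E15.5 dKO and E15.5 dHET hearts, taken at embryonic day 15.5. In dKO animals both genes for the microRNA miR-1, miR-1-1 and miR-1-2, were knocked out, with no tissue-specific driver named in the labels, and dHET is the label of the control, a littermate per the series' design text. The control column of the deposited E15.5 table is headed WT and was taken as the dHET library, the only control library labelled for that stage. Each group had 1 library, and the labels do not say how many hearts it held, so no difference below has a replicate check, an SD or a p-value of its own.

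Complexes I to IV pass electrons from NADH and succinate to oxygen and, at complexes I, III and IV, pump protons across the inner mitochondrial membrane; complex V, the ATP synthase, lets protons back and makes ATP. The heart is packed with mitochondria and depends on this pathway, and around birth the muscle shifts from glycolysis towards oxidation of fatty acids. Several subunits of complex IV (cytochrome c oxidase) exist in pairs, a form found in heart and skeletal muscle and a form found in most tissues, and the muscle forms are known to replace the others as the heart matures. MiR-1 is an abundant microRNA of heart muscle that lowers messenger RNAs carrying a match to its seed in the 3' UTR.

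The scaling totals recovered from the low FPKM values were 49900000 (P2.5 dKO), 44600000 (P2.5 dHET), 104000000 (E15.5 dKO) and 86500000 (E15.5 dHET). At these totals 100 FPKM on a transcript of 500 bases stand for between 2230 and 5197 fragments, so counting error is small for most members. The 6 markers of heart muscle (Tnnt2, Actc1, Myl3, Ryr2, Nkx2-5, Tnni3) were present in every library, with a summed level of 20131 FPKM in P2.5 dKO against 14352 in P2.5 dHET hearts, and 8639 in E15.5 dKO against 9055 in E15.5 dHET hearts. The skeletal muscle factor Myod1 and the brown fat protein Ucp1 were listed at 0 in both P2.5 libraries and did not exceed 0.0070 FPKM at E15.5. Of the other listed genes of these tissues, Ckm, which heart muscle also expresses, had 1432 FPKM in P2.5 dKO and 1084 FPKM in P2.5 dHET hearts. Cidea had 19.1 FPKM in P2.5 dKO and 14.5 FPKM in P2.5 dHET hearts. Acta1 had 88.1 FPKM in P2.5 dKO and 77.8 FPKM in P2.5 dHET hearts. Tnnt3 had 0.986 FPKM in P2.5 dKO against 0.225 FPKM in P2.5 dHET hearts (0.70 on the log2 scale), and 1.14 against 1.08 FPKM in the E15.5 dKO and dHET hearts. Myog did not exceed 0.289 FPKM in any library. Mir1a-1 and Mir1a-2 were listed at 0 in all 4 libraries; such short hairpin genes need not appear in poly-A RNA, so this checks nothing. Xist, the X-inactivation RNA, had 50.7 FPKM in P2.5 dKO against 0.101 in P2.5 dHET hearts. The Y-linked Ddx3y was listed at 0 in P2.5 dKO and at 11.7 FPKM in P2.5 dHET hearts, so sex and genotype cannot be told apart in this pair, whereas both E15.5 libraries held Ddx3y (14.8 FPKM in dKO and 15.3 FPKM in dHET hearts).

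The members made up a large part of the summed level of the usable deposited rows. None of the 13 listed genes of mitochondrial DNA was found by name among these rows, so the shares leave them out. Their summed level was 8.68% of all FPKM in P2.5 dKO and 8.56% in P2.5 dHET hearts, and 4.71% in E15.5 dKO and 4.47% in E15.5 dHET hearts. Among the 100 highest rows of a library, 30 were members in P2.5 dKO and 32 in P2.5 dHET hearts, against 14 in each E15.5 library. The highest member was Atp5b, the catalytic beta subunit of the ATP synthase, with 2185 FPKM in P2.5 dKO and 1933 FPKM in P2.5 dHET hearts, and with 1199 FPKM in E15.5 dKO and 1152 FPKM in E15.5 dHET hearts. By mean over the 4 libraries it was followed by Atp5a1 (the alpha subunit), Atp5g3, Cox4i1 and Cox6b1.

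At P2.5 the members leaned towards higher levels in the dKO library, by small amounts, with several strong exceptions among the small subunits of complexes I and IV. The change was taken as log2((FPKM dKO + 1)/(FPKM dHET + 1)), which understates changes of low genes. Its median was 0.20 over the 87 members, against 0.062 over 12123 genes that reached the same minimum, and 64 members (73.6%) lay above 0, against 60.2% of all counted genes. At a fold of at least 1.5, 4 members were higher and 3 were lower in dKO, where 3.29% of all counted genes were higher and 1.3% lower. At a fold of at least 1.2, 34 members were higher and 9 lower, where the shares of all counted genes were 21.4% and 9.77%. These counts depended on scaling, and so did the shares of all counted genes. Centred on the median of all genes, 2 members were higher and 6 lower at 1.5-fold (2.33% and 1.91% of all counted genes). At 1.2-fold 27 were then higher and 12 lower (15.5% and 14.4% of all counted genes). With each library rescaled to the same sum, 1 was higher and 8 were lower at 1.5-fold (2.46% and 5.1% of all counted genes). At 1.2-fold 11 were then higher and 20 lower, where 11.5% of all counted genes were higher and 26.6% lower. Rescaling moved the median of all counted genes to -0.093 and that of the members to 0.026. The summed level of heart muscle markers was higher in the same dKO library, as given above. The markers differed in this. Of the 6, 5 lay above 0 at P2.5, with a median of 0.34, from 0.74 for Tnnt2 to 0.20 for Nkx2-5. Ryr2 was level (87.8 FPKM in P2.5 dKO against 88.6 FPKM in P2.5 dHET hearts). The part of the marker sum in the changes of the members was not tested. In whole hearts a different number of muscle cells and a different amount of RNA per cell cannot be told apart.

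**Figure D1:**
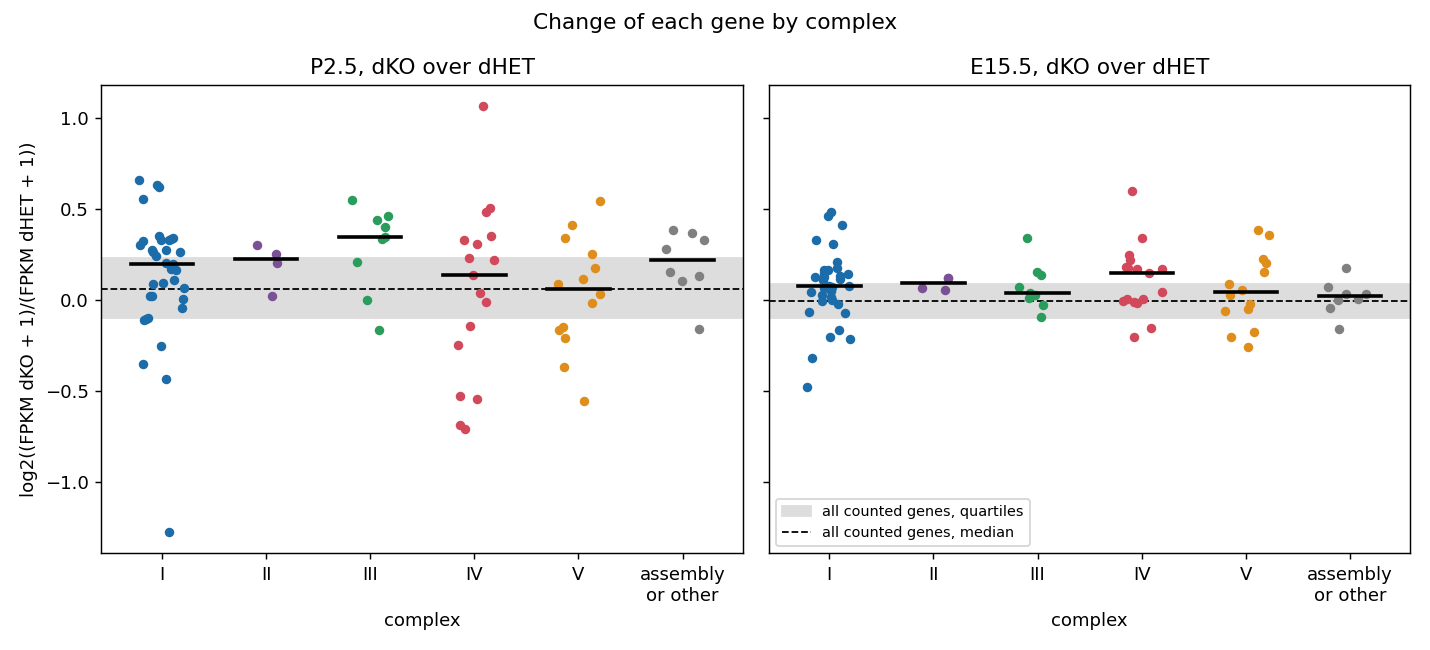
Change of each of the 87 genes, as log2((FPKM dKO + 1)/(FPKM dHET + 1)), by complex at P2.5 (left) and E15.5 (right); each point is a gene, thick bars are medians, the dashed line and grey band are the median and quartiles of all counted genes. Complex III has the highest median at P2.5 (0.35). The range from the lowest to the highest gene is widest in complexes I and IV, and the lowest gene of complex I is Ndufb4 (-1.28 at P2.5). Between quartiles, complex V (-0.16 to 0.24 at P2.5) is wider than complex I (0.013 to 0.33).

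Complex I, the NADH dehydrogenase, has a core that carries the redox centres and a shell of accessory subunits. The median change of its 35 members at P2.5 was 0.20, with 14 at least 1.2-fold higher and 3 at least 1.2-fold lower in dKO (21.4% and 9.77% of all counted genes, the shares for all P2.5 counts at this fold). At P2.5 the changes of the 7 core subunits encoded in the nucleus spanned a narrower range than those of the 28 accessory subunits (-1.28 to 0.66). The accessory median was 0.17, below that of the core. Ndufv1, which binds NADH, had 309 FPKM in P2.5 dKO against 245 FPKM in P2.5 dHET hearts, and 124 FPKM in E15.5 dKO against 113 FPKM in E15.5 dHET hearts. Its change of 0.33 at P2.5 was the highest of the core subunits, whose median was 0.24, and the lowest was that of its partner Ndufv2 (-0.042). None of the core subunits reached 1.5-fold, and 3 of 7 reached 1.2-fold, all higher in dKO.

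The larger differences of complex I lay in the accessory shell. Ndufb7 had 352 FPKM in P2.5 dKO against 223 FPKM in P2.5 dHET hearts, a change of 0.66, and 106 against 97.8 FPKM in the E15.5 dKO and dHET hearts. Ndufa8 had 301 FPKM in P2.5 dKO against 194 FPKM in P2.5 dHET hearts (0.63), and 97.8 against 89.4 FPKM in the E15.5 dKO and dHET hearts. Both are small proteins of the intermembrane space face of the complex, and in both the difference at P2.5 was larger than that at E15.5. Ndufa2, an accessory subunit of the matrix arm, had 245 FPKM in P2.5 dKO against 159 FPKM in P2.5 dHET hearts (0.62), and 82.4 against 66.3 FPKM in the E15.5 dKO and dHET hearts (0.31), so the dKO library was the higher at both stages. The calls of Ndufa2 and Ndufa8 at 1.5-fold were lost on centring (0.56 and 0.57). On rescaling Ndufa2, Ndufa8 and Ndufb7 were all lost (0.45, 0.46 and 0.49). An adjustment for GC content and length also took all of them below 1.5-fold (0.50, 0.51 and 0.45).

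The 3 accessory subunits at least 1.2-fold lower in P2.5 dKO hearts were Ndufb4, Ndufa12 and Ndufa1. Ndufb4 had 1.15 FPKM in P2.5 dKO against 4.20 FPKM in P2.5 dHET hearts (-1.28), and 0.0848 against 0.509 FPKM in the E15.5 dKO and dHET hearts (-0.48). At a pseudocount of 5 the P2.5 change was -0.58, which lost the call at 1.5-fold. It was lower in dKO at both stages, but its levels were far below the complex I median of 176 FPKM (P2.5 dKO), and 49.8% of its transcript is found again elsewhere in the genome at 97% identity or more. Ndufa12 had 25.2 FPKM in P2.5 dKO against 34.4 FPKM in P2.5 dHET hearts (-0.43), and 6.71 against 6.82 FPKM in the E15.5 dKO and dHET hearts; 44.3% of its transcript has such copies. How the authors treated reads with several matches is not given in the sources used here, so levels of these genes are uncertain. Ndufa1, a small membrane subunit encoded on the X chromosome, has no such copy and had 130 FPKM in P2.5 dKO against 167 FPKM in P2.5 dHET hearts (-0.35), but 55.2 against 39.2 FPKM in the E15.5 dKO and dHET hearts (0.48).

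Complex II, succinate dehydrogenase, which feeds electrons from the citric acid cycle, had changes of at most 0.30 at P2.5 and 0.12 at E15.5. All 4 subunits had changes above 0 at both stages, with medians of 0.23 (P2.5) and 0.093 (E15.5). Sdhb, the iron-sulphur subunit, had 328 FPKM in P2.5 dKO against 266 FPKM in P2.5 dHET hearts (0.30), and 179 against 165 FPKM in the E15.5 dKO and dHET hearts (0.12). Sdha, the flavoprotein, had nearly equal levels of 296 FPKM in P2.5 dKO and 292 FPKM in P2.5 dHET hearts. The membrane anchors Sdhc and Sdhd changed by 0.20 and 0.25 at P2.5.

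Complex III, the cytochrome bc1 complex, had the highest median at P2.5, 0.35, and 6 of its 9 subunits were at least 1.2-fold higher and none at least 1.2-fold lower in dKO, where 21.4% of all counted genes were higher and 9.77% lower. At 1.5-fold none was called. Rescaling of the libraries lowered this median to 0.18, still above 0. An adjustment for GC content and length lowered it to 0.22, close to the 0.21 of complex II under the same adjustment. Uqcrq, a small subunit, had 575 FPKM in P2.5 dKO against 392 FPKM in P2.5 dHET hearts (0.55), and 115 against 113 FPKM in the E15.5 dKO and dHET hearts (0.028). Uqcrh, the hinge protein that binds cytochrome c1, had 629 FPKM in P2.5 dKO against 456 FPKM in P2.5 dHET hearts (0.46), and 228 against 216 FPKM in the E15.5 dKO and dHET hearts (0.073). In both genes the libraries differed at P2.5 and were close at E15.5. Uqcrc2, a core protein, was level at P2.5, with 297 FPKM in dKO and 297 FPKM in dHET hearts, and Uqcrb had 133 against 150 FPKM in the P2.5 dKO and dHET hearts (-0.16). The redox subunit Cyc1, cytochrome c1, had 523 FPKM in P2.5 dKO against 453 FPKM in P2.5 dHET hearts (0.21), and 242 against 217 FPKM in the E15.5 dKO and dHET hearts (0.16).

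Complex IV held both the largest gain and some of the largest losses. Its median change at P2.5 was 0.14, which became -0.037 when the libraries were rescaled to the same sum, and 6 of 17 members were at least 1.2-fold higher and 4 at least 1.2-fold lower in dKO (21.4% and 9.77% of all counted genes). Cox6a1, the subunit VIa form of most tissues, had 608 FPKM in P2.5 dKO against 290 FPKM in P2.5 dHET hearts (1.07), and 269 against 212 FPKM in the E15.5 dKO and dHET hearts (0.34). Cox6a2, the heart and skeletal muscle form of the same subunit, had 254 FPKM in P2.5 dKO against 415 FPKM in P2.5 dHET hearts (-0.71), and 95.0 against 96.2 FPKM in the E15.5 dKO and dHET hearts (-0.018). The pair thus differed in opposite directions at P2.5, and both calls held under each scaling and under an adjustment for GC content and length. Cox7b, a small subunit encoded on the X chromosome, had 144 FPKM in P2.5 dKO against 232 FPKM in P2.5 dHET hearts (-0.69), and 84.4 against 74.3 FPKM in the E15.5 dKO and dHET hearts (0.18); 46.0% of its transcript has copies elsewhere.

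Among the other members of complex IV, Cox4i1, the common form of subunit IV, had 1514 FPKM in P2.5 dKO against 1066 FPKM in P2.5 dHET hearts (0.51), and 478 against 424 FPKM in the E15.5 dKO and dHET hearts (0.17). Cox4i2, its oxygen-responsive form known from lung, stayed between 4.22 FPKM (E15.5 dKO) and 8.13 FPKM (P2.5 dKO). Ndufa4, first assigned to complex I and now counted with complex IV, had 386 FPKM in P2.5 dKO against 564 FPKM in P2.5 dHET hearts (-0.55), and 235 against 234 FPKM in the E15.5 dKO and dHET hearts (0.0075). Its paralog Ndufa4l2 had 18.5 FPKM in P2.5 dKO against 15.7 FPKM in P2.5 dHET hearts, so the ratio of Ndufa4l2 to Ndufa4 was 1.72-fold higher in the P2.5 dKO library. Cox6b2, a form known from testis, was at about 0.0103 of the Cox6b1 level in P2.5 dKO and 0.0101 in P2.5 dHET hearts.

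The paired isoforms of subunits VIa, VIIa and VIII were set against each other within each library, where scaling between libraries has no part. Of the summed level of these 3 pairs, the muscle forms Cox6a2, Cox7a1 and Cox8b made up 36.9% in P2.5 dKO and 53.7% in P2.5 dHET hearts, and 17.6% in E15.5 dKO and 18.1% in E15.5 dHET hearts. The lower share of the P2.5 dKO library came mostly from subunit VIa. The ratio of Cox6a2 to Cox6a1 was 0.417 in P2.5 dKO against 1.43 in P2.5 dHET hearts, and 0.353 in E15.5 dKO against 0.454 in E15.5 dHET hearts. Its log2 differed between dKO and dHET hearts by -1.78 in the P2.5 pair and by -0.36 in the E15.5 pair, so the P2.5 dKO ratio lay near those of the embryonic hearts.

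The other pairs differed less between genotypes. Cox8b, the muscle form of subunit VIII, had 324 FPKM in P2.5 dKO against 327 FPKM in P2.5 dHET hearts, and 43.9 against 36.9 FPKM in the E15.5 dKO and dHET hearts. Cox8a, the form of most tissues, had 457 FPKM in P2.5 dKO against 326 FPKM in P2.5 dHET hearts, and 417 against 421 FPKM in the E15.5 dKO and dHET hearts. The ratio of Cox8b to Cox8a was therefore 0.710 in P2.5 dKO against 1.00 in P2.5 dHET hearts, and 0.105 in E15.5 dKO against 0.0875 in E15.5 dHET hearts; between dKO and dHET hearts the log2 of this ratio differed by -0.50 in the P2.5 pair and by 0.27 in the E15.5 pair. Cox7a1, the muscle form of subunit VIIa, had 142 FPKM in P2.5 dKO against 156 FPKM in P2.5 dHET hearts, and 31.1 against 27.5 FPKM in the E15.5 dKO and dHET hearts. Cox7a2 had 163 FPKM in P2.5 dKO against 159 FPKM in P2.5 dHET hearts, and the ratio of the pair was 0.868 in P2.5 dKO against 0.985 in P2.5 dHET hearts. The log2 of that ratio differed between dKO and dHET hearts by -0.18 (P2.5) and by -0.042 (E15.5).

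**Figure D2:**
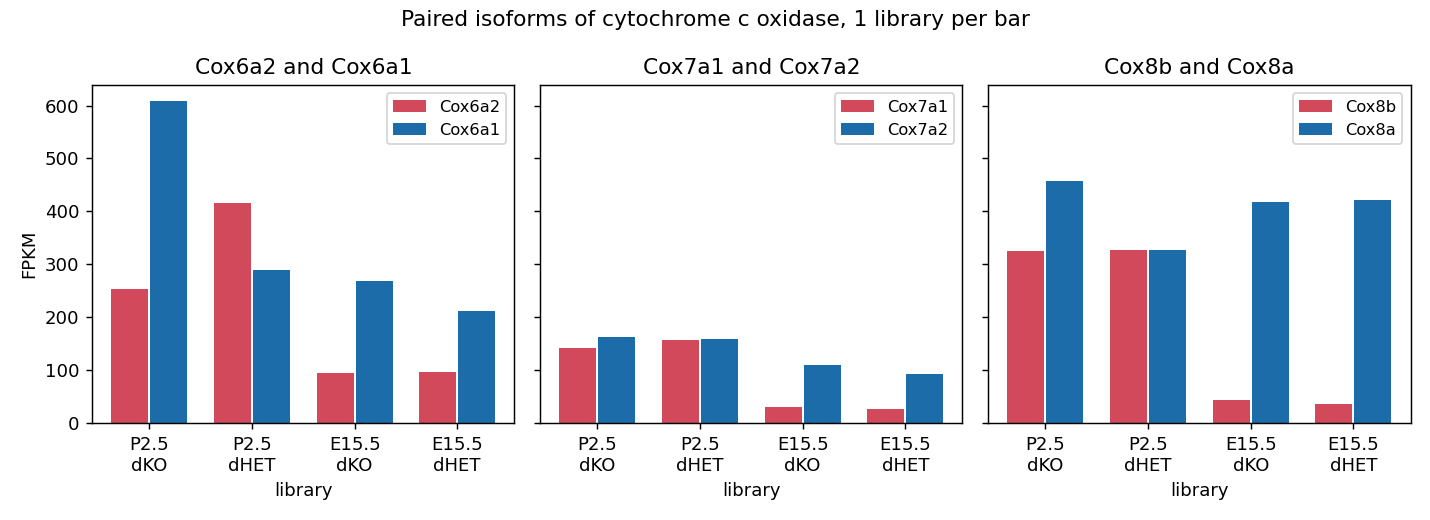
Level in FPKM of the muscle form (red) and the form of most tissues (blue) of subunits VIa, VIIa and VIII of cytochrome c oxidase in the 4 libraries; each bar is 1 library. Cox6a1 stands above Cox6a2 in the P2.5 dKO library (608 against 254 FPKM), whereas Cox6a2 stands above Cox6a1 in the P2.5 dHET library (415 against 290 FPKM).

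The start-site regions of Cox6a1, the member with the highest P2.5 change, and of the pair Cox8b and Cox8a are shown. The pair of subunit VIII has a TATA word in 1 of its forms, whereas in the regions of Cox7a1 and Cox7a2 none of the searched words was found. The regions were taken from RefSeq on the build GRCm38.p6 and matched by symbol; 71 of the 87 members had one. Words were searched on both strands and a match is a description, not a binding site. Cox6a1 (region chr5:115348909-115349208, minus strand) holds the palindromic word of the factor NRF1, in capitals from base 89 of 300. Cox8b (chr7:140900397-140900696, minus strand) holds the TATA word TATAAA, in capitals from base 255, and Cox8a (chr19:7217567-7217866, minus strand) holds none of the words searched. In each line the sequence runs 5′ to 3′ on the strand of the gene.
Cox6a1: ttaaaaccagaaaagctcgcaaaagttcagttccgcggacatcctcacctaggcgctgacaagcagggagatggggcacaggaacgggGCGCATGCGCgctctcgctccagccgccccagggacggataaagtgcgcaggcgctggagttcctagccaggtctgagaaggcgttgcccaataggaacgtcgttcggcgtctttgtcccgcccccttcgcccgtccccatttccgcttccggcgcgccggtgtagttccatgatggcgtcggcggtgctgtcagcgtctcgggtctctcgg
Cox8b: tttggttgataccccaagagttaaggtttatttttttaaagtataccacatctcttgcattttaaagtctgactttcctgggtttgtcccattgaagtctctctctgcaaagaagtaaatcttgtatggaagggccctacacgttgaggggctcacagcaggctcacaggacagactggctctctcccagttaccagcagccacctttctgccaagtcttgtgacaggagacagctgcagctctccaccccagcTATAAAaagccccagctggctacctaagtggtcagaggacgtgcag
Cox8a: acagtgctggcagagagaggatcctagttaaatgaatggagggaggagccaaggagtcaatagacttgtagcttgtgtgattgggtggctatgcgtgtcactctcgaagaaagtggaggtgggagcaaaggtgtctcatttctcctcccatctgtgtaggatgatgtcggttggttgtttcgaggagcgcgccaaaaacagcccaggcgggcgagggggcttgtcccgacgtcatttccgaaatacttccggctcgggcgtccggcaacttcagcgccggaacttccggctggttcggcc

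Words of factors known to act on respiratory genes stood in a larger share of the members than of all genes with such a region, a difference given here without a test. The NRF1 word stood in 5 of 71 members (7.04%: Atp5k, Cox6a1, Ndufa11, Ndufaf4, Uqcrc1), against 1.07% of 27025 genes. AAGATGGCG, the word of YY1, stood in 8 members (11.3%) against 1.64% of genes, and ACCGGAAG, an ETS word, in 7 (9.86%) against 2.60%. TCAAGGTCA, the word of the estrogen-related receptors, stood in Atp5g3 and Sdhd (2.82%) against 0.466% of genes. TATAAA, added after the Cox8b sequence had been read, stood in 6 members (8.45%) against 15.7% of genes. The 8 members with the YY1 word had P2.5 changes between 0.087 and 0.42, with a median of 0.27, and the 5 with the NRF1 word between -0.16 and 1.07, with a median of 0.16. The medians were 0.13 for the 7 with the ETS word, 0.12 for the 2 with the word of the estrogen-related receptors and -0.059 for the 6 with TATAAA. Each gene was counted once per word.

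Complex V, the ATP synthase, had a P2.5 median change of 0.061, the nearest of the complexes to the 0.062 of all counted genes, turning to -0.0013 on centring and to -0.11 on rescaling, with 3 of 14 members at least 1.2-fold higher and 2 at least 1.2-fold lower in dKO (21.4% and 9.77% of all counted genes). In the catalytic F1 part, Atp5a1 had 1521 FPKM in P2.5 dKO against 1202 FPKM in P2.5 dHET hearts (0.34), and 721 against 678 FPKM in the E15.5 dKO and dHET hearts (0.088). Atp5d and Atp5e, the delta and epsilon subunits of the central stalk, differed in opposite directions at P2.5. Atp5d had 573 FPKM in P2.5 dKO against 393 FPKM in P2.5 dHET hearts (0.54), and 225 against 202 FPKM in the E15.5 dKO and dHET hearts (0.15). Atp5e had 198 FPKM in P2.5 dKO against 292 FPKM in P2.5 dHET hearts (-0.56), and 196 against 153 FPKM in the E15.5 dKO and dHET hearts (0.36).

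In the membrane part and peripheral stalk of the ATP synthase, Atp5j2, the f subunit, had 494 FPKM in P2.5 dKO against 370 FPKM in P2.5 dHET hearts (0.42), and 123 against 142 FPKM in the E15.5 dKO and dHET hearts (-0.20). Atp5k, the e subunit, had 273 FPKM in P2.5 dKO against 306 FPKM in P2.5 dHET hearts (-0.16), and 75.0 against 57.1 FPKM in the E15.5 dKO and dHET hearts (0.39). Atp5o, the stalk protein OSCP, had 428 FPKM in P2.5 dKO against 494 FPKM in P2.5 dHET hearts (-0.21), and 141 against 169 FPKM in the E15.5 dKO and dHET hearts (-0.26). Its transcript has copies elsewhere over 85.0% of its length, and 44.0% of its exons overlap other genes, Donson on the same strand among them. The c subunit that forms the rotor ring is made from 3 genes with the same mature protein. Of their summed level Atp5g3 held 91.7% in P2.5 dKO and 92.0% in P2.5 dHET hearts, and 95.0% in E15.5 dKO and 93.8% in E15.5 dHET hearts, with Atp5g1 nearly all the rest. Copies elsewhere cover 100% of the Atp5g2 transcript and 27.9% of that of Atp5g1, whereas Atp5g3 has none, so these shares are uncertain. Atp5l, the g subunit, stood at only 2.11 FPKM in P2.5 dKO and 3.02 FPKM in P2.5 dHET hearts, with copies elsewhere over 92.6% of its transcript.

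The 8 members outside the complexes had median changes of 0.22 (P2.5) and 0.019 (E15.5). At P2.5, 7 of 8 lay above 0, where 60.2% of all counted genes did. At that stage 4 were at least 1.2-fold higher and none lower in dKO (21.4% and 9.77% of all counted genes). At E15.5 none passed 1.2-fold, where 5.15% of all counted genes were higher and 4.37% lower. Atp5s was the lowest in P2.5 dKO hearts (5.77 FPKM) and Cox4nb the lowest in P2.5 dHET hearts (6.26 FPKM). The highest in all 4 libraries was Cox7a2l, a factor of respiratory supercomplexes, with 74.3 FPKM in P2.5 dHET hearts and a P2.5 change of 0.10. Ndufaf3, an assembly factor of complex I, had 17.0 FPKM in P2.5 dKO against 12.9 FPKM in P2.5 dHET hearts (0.37), and 9.49 against 8.30 FPKM in the E15.5 dKO and dHET hearts (0.17). Cox4nb, the neighbour of Cox4i1 whose protein belongs to the membrane complex EMC of the endoplasmic reticulum and not to cytochrome c oxidase, had 8.49 FPKM in P2.5 dKO against 6.26 FPKM in P2.5 dHET hearts (0.39), and 7.11 against 6.94 FPKM in the E15.5 dKO and dHET hearts (0.030).

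At E15.5 the dKO and dHET libraries were closer. The median change of the members was 0.064, against -0.0074 over 12115 counted genes, and 63 members (72.4%) lay above 0, against 47.8% of all counted genes. At a fold of at least 1.5 the only call was Cox7c, higher in dKO, where 0.479% of all counted genes were higher and 0.71% lower. It had 1.80 FPKM in E15.5 dKO against 0.850 FPKM in E15.5 dHET hearts (0.60), and 11.4 against 16.9 FPKM in the P2.5 dKO and dHET hearts (-0.53). With copies elsewhere over 32.9% of its transcript and such a low level, this call was lost at a pseudocount of 5 (0.22). At a fold of at least 1.2, 10 members were higher and 2 lower, where the shares of all counted genes were 5.15% and 4.37%. The higher ones were Cox7c, Ndufa1, Ndufs3, Ndufb2, Atp5k, Atp5e, Cox6a1, Uqcr11, Ndufb6 and Ndufa2, and the lower ones Ndufb4 and Ndufab1. Complex medians ran between 0.019 (assembly factors and others) and 0.15 (complex IV), and none changed sign under either scaling. Ndufs3, a core subunit of complex I, had 15.0 FPKM in E15.5 dKO against 10.6 FPKM in E15.5 dHET hearts (0.46), with copies elsewhere over 84.4% of its transcript.

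The changes of the members at the 2 stages showed little relation to each other. Across the 87 genes, which are not independent, Pearson's r was 0.081, against 0.34 across 12097 genes counted at both stages. Above 0 at both stages were 48 members (55.2%), against 35.3% of all counted genes, and below 0 at both were 8. The sign was the same at both stages in 64.4% of the members and in 62.6% of all counted genes. Cox6a1, Ndufa2 and Uqcr11 were at least 1.2-fold higher in dKO at both stages. Uqcr11, a small subunit of complex III, had 305 FPKM in P2.5 dKO against 224 FPKM in P2.5 dHET hearts (0.44), and 22.7 against 17.7 FPKM in the E15.5 dKO and dHET hearts (0.34), with copies elsewhere over 85.4% of its transcript. Ndufb4 was at least 1.2-fold lower at both, and Ndufa1, Ndufab1, Cox7c and Atp5e passed 1.2-fold in opposite directions. The share of all counted genes past 1.2-fold at both stages was not computed, so these calls only describe the members. The stages share no library, but they differ in read type and in the sex-linked genes given above.

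**Figure D3:**
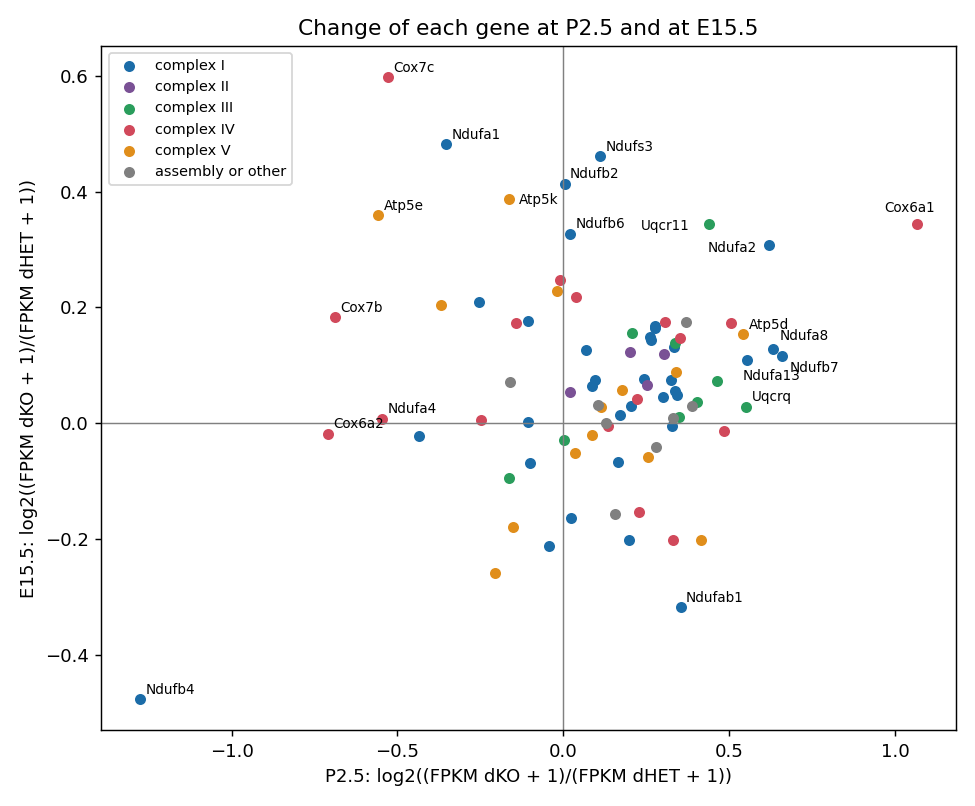
Change of each of the 87 genes at P2.5 (horizontal axis) and at E15.5 (vertical axis), both as log2((FPKM dKO + 1)/(FPKM dHET + 1)), coloured by complex. Cox6a1 lies furthest to the right (1.07 and 0.34) and Ndufb4 at the lower left (-1.28 and -0.48), and the cloud as a whole has an r of 0.081.

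The authors' deposited tables called no member significant at either stage, where they called 0.429% of the counted genes at P2.5 and 0.867% at E15.5. These calls compare 2 libraries, not genotypes. The lowest q-value of a member in the authors' deposited table was 0.053 at P2.5, for Cox6a1, and 0.38 at E15.5, for Ndufb4. The p-value in the authors' deposited tables was under 0.05 for 9 of 87 members at P2.5 and for 7 at E15.5, where it was for 4.67% and 3.99% of all counted genes. Atp5g2, outside the minimum level, had 0.0149 FPKM in E15.5 dKO against 0.769 FPKM in E15.5 dHET hearts and a q-value of 0.030 in the authors' deposited table, with copies elsewhere over 100% of its transcript.

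The difference between stages was much larger than that between genotypes. The stages were normalised in separate tables and read from a single end (P2.5) or both ends (E15.5), so the levels are given side by side as deposited. The longest annotated transcript had a median length of 960 bases in the members against 3069 bases over all genes. The part of read type and transcript length in the stage difference was not tested. In dKO hearts the median member was 2.17-fold higher at P2.5 than at E15.5, against 0.991-fold for all counted genes, and in dHET hearts it was 2.15-fold higher, against 0.947-fold. At least 2-fold higher at P2.5 were 57 of 87 members in dKO and 49 in dHET hearts, where 5.52% and 4.73% of all counted genes were, and no member was at least 2-fold lower, where 2.47% and 3.5% of all counted genes were. Rescaled to the same sum, 37 members in dKO and 38 in dHET hearts were at least 2-fold higher, where 4.05% and 4.79% of all counted genes were. Assembly factors and others differed less between stages, with medians of 1.29-fold in dKO and 1.08-fold in dHET hearts.

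The muscle isoforms of complex IV stood out in this comparison by their ratios, which need no scaling between tables. The forms of a pair differ in transcript length, and the part of length and read type in these ratios was not tested. The lengths were 362 bases (Cox8b) and 545 (Cox8a), 364 (Cox7a1) and 754 (Cox7a2), and 658 (Cox6a2) and 571 (Cox6a1). The ratio of Cox8b to Cox8a was 6.74-fold higher at P2.5 than at E15.5 in dKO hearts and 11.4-fold higher in dHET hearts, and that of Cox7a1 to Cox7a2 3.05-fold and 3.36-fold. That of Cox6a2 to Cox6a1 was 1.18-fold higher in dKO hearts and 3.15-fold higher in dHET hearts. Cox8a was the only subunit of complex IV that was not higher at P2.5 in dHET hearts, with 326 FPKM at P2.5 and 421 FPKM at E15.5. Whether the VIa pair differs between genotypes in its stage shift was not tested, since each group had 1 library.

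Repeated sequence moved with the stage difference. In 16 members at least 20% of the longest transcript was found again elsewhere in the genome, and their median stage difference was 3.50-fold in dKO and 3.53-fold in dHET hearts, against 2.16-fold and 2.00-fold for the other 71. Cox5b, a subunit of complex IV with copies over 87.8% of its transcript, had 56.1 FPKM in P2.5 dKO and 66.8 FPKM in P2.5 dHET hearts, against 4.41 and 4.39 FPKM in the E15.5 dKO and dHET hearts. Atp5h, the d subunit of the stalk of the ATP synthase (80.6%), had 169 FPKM in P2.5 dKO and 141 FPKM in P2.5 dHET hearts, against 7.29 and 7.64 FPKM in the E15.5 dKO and dHET hearts. These genes were named after their values were seen, and the part of multiply matching reads in their values was not tested. For the genotype comparison at P2.5 the 71 members without copies had a median of 0.23, with 4 higher and 1 lower at 1.5-fold (3.29% and 1.3% of all counted genes).

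**Figure D4:**
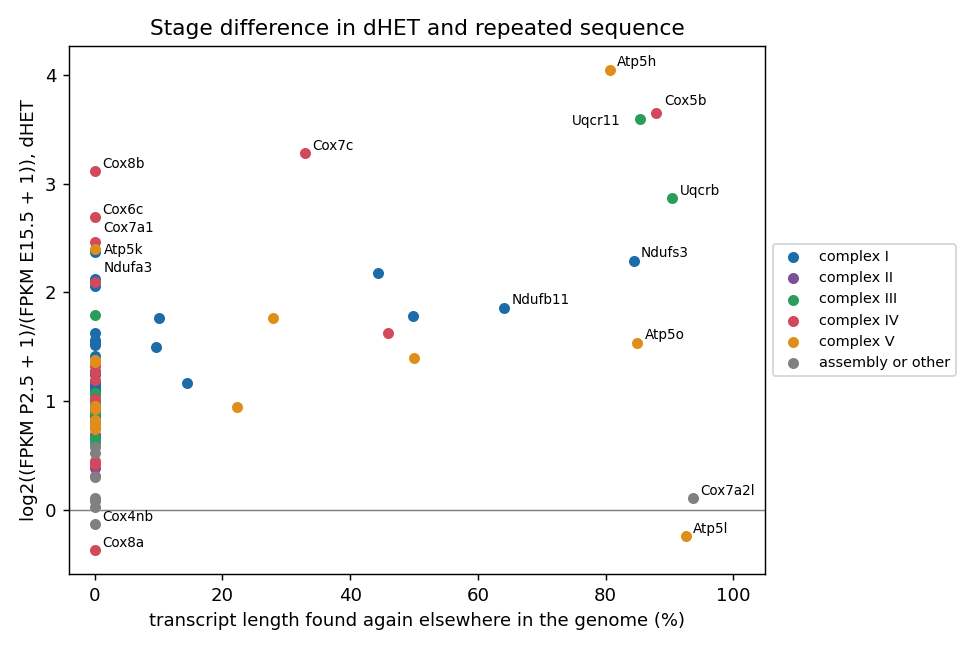
Stage difference in dHET hearts, as log2((FPKM P2.5 + 1)/(FPKM E15.5 + 1)), against the share of the longest transcript found again elsewhere in the genome, for the 87 genes. Atp5h, Cox5b, Uqcr11 and Uqcrb, all above 80%, are among the highest, Atp5l and Cox7a2l, above 90%, are near 0, and Cox8b is high with no copy.

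Base composition moved with the P2.5 change. Across the 87 members Pearson's r between the change and the GC content of the longest annotated transcript was 0.35 at P2.5, close to the 0.34 across 11793 counted genes, and 0.013 at E15.5. The 34 members at least 1.2-fold higher in P2.5 dKO hearts had a median GC content of 54.0%, and the 9 at least 1.2-fold lower 48.5%. After a linear adjustment for GC content and length, the median P2.5 change of the members was 0.12, against 0.071 over all counted genes. Before the adjustment these medians were 0.20 and 0.062. At 1.5-fold 1 member was then higher and 4 lower (2.31% and 1.2% of all counted genes). At 1.2-fold 23 were then higher and 14 lower (18.4% and 7.67% of all counted genes). Cox6a1 stayed at 0.86 and Cox6a2 at -0.82. The part of base composition in the other changes was not tested further.

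**Figure D5:**
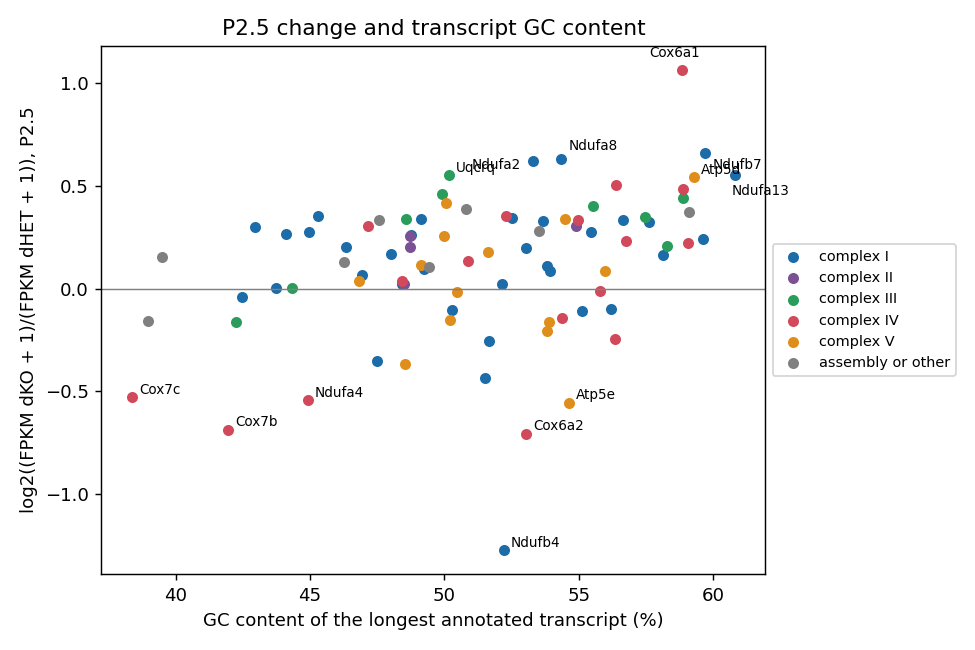
Change at P2.5, as log2((FPKM dKO + 1)/(FPKM dHET + 1)), against the GC content of the longest annotated transcript in percent, for the 87 genes coloured by complex. Higher changes go with higher GC content (r of 0.35), while Cox6a2 and Atp5e, above 50% GC, lie among the lowest.

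Of the 3 members on the X chromosome, Ndufb11 had 218 FPKM in P2.5 dKO against 171 FPKM in P2.5 dHET hearts (0.34), whereas Ndufa1 and Cox7b were lower in P2.5 dKO, as given above. All 3 were above 0 at E15.5. The part of sex in these values was not tested.

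Matches to the miR-1 seed were sparse in these short 3' UTRs. The longest annotated 3' UTR had a median of 201 bases in the members, against 893 bases over 19915 genes. The word ACATTCC stood in 3 of 87 members (3.45%: Cox4nb, Ndufaf4, Uqcrq), against 9.13% of genes, and CATTCCA in 4 (4.60%: Cox4nb, Ndufa12, Ndufaf4, Ndufb10), against 10.8%. The longer word ACATTCCA stood in 2 (2.30%: Cox4nb, Ndufaf4), against 3.46% of genes, and the sites of these 2 genes were not mapped. Cox4nb changed by 0.39 at P2.5 and 0.030 at E15.5, and Ndufaf4 by 0.16 and -0.16. Of the 3 subunits with a word, Ndufb10 was the one whose word lay inside the deposited gene locus, at chr17:24859040-24859046 on the minus strand (mm9), and its site is shown with the word in capitals.
Ndufb10: gaactcttCATTCCActgctaaa
This accessory subunit of complex I had 322 FPKM in P2.5 dKO against 265 FPKM in P2.5 dHET hearts (0.28), and 95.7 against 85.3 FPKM in the E15.5 dKO and dHET hearts (0.16). The words of Uqcrq and Ndufa12 lay 526 and 220 bases outside the deposited loci. Cox6a1 and Cox6a2 held neither word.

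Genes that serve the same pathway but fall outside the names were counted at the same folds, to be read against the shares of all counted genes (at 1.2-fold 21.4% higher and 9.77% lower in the P2.5 pair, and 5.15% higher and 4.37% lower in the E15.5 pair). Of 13 carriers and transporters 12 were counted, with a median of 0.21 at P2.5, 5 at least 1.2-fold higher and none lower in dKO, and -0.0079 at E15.5, with 1 higher and none lower. None passed 1.5-fold at either stage. The highest, Slc25a4, the ATP and ADP carrier of heart and muscle, had 2403 FPKM in P2.5 dKO against 1892 FPKM in P2.5 dHET hearts (0.35), and 760 against 688 FPKM in the E15.5 dKO and dHET hearts (0.14). Cycs, cytochrome c itself, was listed at only 2.64 FPKM in P2.5 dKO and 3.04 FPKM in P2.5 dHET hearts, and at 3.56 FPKM in both E15.5 libraries. Of 28 assembly factors 26 were counted, with medians of 0.096 (P2.5) and -0.038 (E15.5); none passed 1.5-fold, and at 1.2-fold 5 were higher and 3 lower at P2.5 and 1 was higher at E15.5. Of 15 regulators of mitochondrial biogenesis 14 were counted, with medians of 0.051 (P2.5) and -0.069 (E15.5). At 1.2-fold 2 of these were higher and 2 lower at P2.5, and none at E15.5. The 1 that passed 1.5-fold was Esrrb, an orphan nuclear receptor, with 6.55 FPKM in P2.5 dKO against 3.18 FPKM in P2.5 dHET hearts (0.85), and 3.62 against 3.09 FPKM in the E15.5 dKO and dHET hearts (0.18). On rescaling, the P2.5 medians of the assembly factors and of the regulators turned to -0.066 and -0.11. None of the 13 listed subunits encoded in mitochondrial DNA was found by name among the deposited rows of either stage, so they were not analysed here.

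Markers of other cell types were set beside these values. At P2.5 the summed level of 4 smooth muscle markers was 1768 FPKM in dKO against 696 FPKM in dHET hearts, that of 4 fibroblast markers 462 against 445 FPKM, that of 4 endothelial markers 253 against 220 FPKM, that of 3 leukocyte markers 6.97 against 8.87 FPKM and that of 2 erythroid markers 18.8 against 12.8 FPKM. At E15.5 these sums were 1363 FPKM in dKO against 828 FPKM in dHET hearts for smooth muscle, 354 against 376 FPKM for fibroblasts, 198 against 190 FPKM for endothelium, 6.24 against 6.59 FPKM for leukocytes and 15.6 against 11.5 FPKM for erythroid cells. The smooth muscle sums were carried by Acta2, with 1692 FPKM in P2.5 dKO against 658 FPKM in P2.5 dHET hearts and 1215 against 692 FPKM in the E15.5 dKO and dHET hearts. Cnn1 was also higher in dKO, with 53.5 FPKM in P2.5 dKO against 15.9 FPKM in P2.5 dHET hearts (1.69). At E15.5 Cnn1 had 110 FPKM in dKO against 82.7 FPKM in dHET hearts (0.41). Tagln was lower in dKO at both stages (-0.090 and -0.29). Myh11 had 6.41 FPKM in P2.5 dKO against 4.30 FPKM in P2.5 dHET hearts (0.48). At E15.5 Myh11 had 0.915 FPKM in dKO against 6.95 FPKM in dHET hearts. Of the fibroblast markers Col1a1 had 309 FPKM in P2.5 dKO against 221 FPKM in P2.5 dHET hearts, whereas the other 3 were lower in P2.5 dKO and the median change of the list was -0.21. The part of these cell types in the changes of the members was not tested.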

How the data were processed

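The authors' deposited values were FPKM in 1 table per stage, with the authors' log2 fold change, p-value and q-value per gene; the submitters' processing notes name the tools TopHat, Bowtie and Cufflinks and mm9 as genome build. The deposited log2 fold change is dKO over dHET at P2.5 and control over dKO at E15.5, and all changes here were computed anew from the FPKM. Commas in names had displaced 86 rows at each stage, which were realigned on their locus. Rows with too little or too much data or a failed estimate were left out. Reads were 100 bases long.

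A gene was counted with an FPKM of at least 1 in any of the 4 libraries, and the pseudocount was 1. Fold thresholds were 1.5 and 1.2 within a stage and 2 between stages; 1 library per group allows no test. Counts are set beside the share of all counted genes past the same fold. Copies elsewhere are alignments (blastn 2.17.0) of the longest GENCODE M1 transcript to the genome of the same assembly, at 97% identity over at least 90 bases outside the gene. Scaling totals were recovered from the steps of low FPKM and need not equal mapped reads; loci are 1-based. Python 3.11.15, pandas 2.3.3 and numpy 2.4.6 were used, and the calculation was tested on simulated data.

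The members, lists and rules were chosen with earlier results of these data known. Members named are, per stage and complex, up to 2 with the largest positive and up to 2 with the largest negative change, all past 1.5-fold, the paired isoforms and the 5 with the highest mean level; others named are genes chosen after their values were seen (Ndufv1, Ndufv2, Sdha, Ndufb10, Ndufb11, Cox5b, Atp5h, Cox7a2l, Slc25a4, Cycs) or listed in full with a count. Alternatives tried were other pseudocounts, filters, status flags and scalings, the subunits alone, an adjustment for GC content and length, and members with copies or on the X chromosome left out.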

Additional observations from a re-analysis of the deposited data

Results flagged for a closer look

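In 4 members the change between the dKO and dHET libraries passed 1.2-fold in opposite directions at the 2 stages, with 1 library per group, and the difference between stages was not tested. The share of all counted genes that did so was not computed. Ndufa1 changed by -0.35 at P2.5 and by 0.48 at E15.5 on the log2 scale. It is encoded on the X chromosome, and the P2.5 libraries differ in Xist. Ndufab1, the mitochondrial acyl carrier protein, changed by 0.35 at P2.5, with 28.1 FPKM in dKO against 21.8 FPKM in dHET hearts, and by -0.32 at E15.5, with 7.10 FPKM in dKO against 9.09 FPKM in dHET hearts. Cox7c changed by -0.53 at P2.5 and by 0.60 at E15.5, at levels of at most 16.9 FPKM and with copies elsewhere over 32.9% of its transcript. Atp5e changed by -0.56 at P2.5 and by 0.36 at E15.5, with no copy elsewhere.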

How the results depend on the processing

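No paired analysis was possible because each group had 1 library, and for the same reason no replicate could be left out. No called value changed direction under any alternative tried. At P2.5 the members' median change of 0.20 became 0.18 at a pseudocount of 5, 0.17 without a filter, 0.14 centred on all genes, 0.026 rescaled to the same sum, 0.12 adjusted for GC content and length and 0.23 without members with copies. The median of all counted genes, 0.062, became 0.0375 at a pseudocount of 5, 0 without a filter, -0.093 rescaled and 0.071 adjusted. The 3 lower at 1.5-fold at P2.5 were 2 at a pseudocount of 5, where Ndufb4 was lost (0.346% of all counted genes). Counts at 1.5-fold at P2.5 became 2 higher and 6 lower on centring, 1 and 8 on rescaling, 1 higher on adjustment and 1 lower without members with copies. Counts at 1.2-fold at P2.5 became 11 higher and 20 lower on rescaling, 14 lower on adjustment and 4 lower without members with copies. The shares of all counted genes beside these P2.5 counts are given above (9.77% for the 4 lower without members with copies). At E15.5 the median of 0.064 became 0.067 with an FPKM of at least 10, 0.071 on centring, 0.073 for the subunits alone, 0.046 on adjustment and 0.073 without members with copies. The counts at E15.5 turned on low genes, and the shares of all counted genes moved with the settings too. At 1.5-fold 1 was lower at a pseudocount of 0.1, without a filter and on rescaling (1.39%, 0.416% and 1.15% of all counted genes). At that fold 0 were higher at a pseudocount of 5 and without members with copies (0.149% and 0.479% of all counted genes). At 1.2-fold 0 were lower at a pseudocount of 5 (1.45% of all counted genes). At that fold 1 was lower with an FPKM of at least 10 and without members with copies (4.06% and 4.37% of all counted genes). At a pseudocount of 5 the log2 differences of isoform ratios became -1.76 (Cox6a2 over Cox6a1) and -0.49 (Cox8b over Cox8a) at P2.5, and -0.058 (Cox7a1 over Cox7a2) and 0.24 (Cox8b over Cox8a) at E15.5. Without the 20 highest rows the members' share of all FPKM was 7.98% in P2.5 dKO, 7.73% in P2.5 dHET, 4.41% in E15.5 dKO and 4.14% in E15.5 dHET hearts. Between stages, rescaling left 37 members at least 2-fold higher in dKO hearts and medians (log2) of 0.79 in dKO and 0.92 in dHET hearts, and without members with copies these were 1.11 and 1.00. Causes of these shifts were not tested. Of single members, 10 calls at 1.5-fold were lost and 11 gained over all alternatives, the same gene counted once per setting. The adjustment and the lists without copies or X-linked members were chosen after seeing the data.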
